A study of Arabidopsis thaliana with 12 samples.

Results

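Leaf transcript levels of w.tEDS1, an Arabidopsis thaliana line that carries wild-type EDS1, were set against those of eds1-2, a mutant without EDS1 function. Each genotype had 3 libraries, which were 6 of the 12 libraries of the series and were chosen by their genotype labels alone. All plants were 4 weeks old and had been grown in soil with a 10 h light period. Pst AvrRps4, the tomato pathovar of Pseudomonas syringae armed with the effector AvrRps4, was pressed into the leaves with a syringe at a density of 0.005 (OD600), and leaves were sampled 4 h later. A library held RNA pooled from 4 plants, which the labels call a biological replicate. The other 6 libraries, from a line with the EDS1 variant R493A and from the wild type Col-0, had the same treatment. They entered the fit, so they bear on its filter and its estimate of the spread, and levels of named genes in them are given beside those compared. The labels do not give the background of the w.tEDS1 line, the promoter that drives its EDS1 or the number of independent lines. Mock-treated leaves were not analysed here, so every value is a level after infection and none measures a response to it.

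EDS1 is a lipase-like protein that works in pairs with its relatives PAD4 or SAG101 and, through the helper receptors of the ADR1 and NRG1 families, carries signals from receptors with a TIR domain. AvrRps4 is recognised in Arabidopsis by such receptors, the pair RPS4 and RRS1. Downstream of EDS1 and PAD4, leaves make salicylic acid through the enzyme ICS1 and switch on defence genes, among them WRKY transcription factors and the PR genes. The comparison asks which transcripts of infected leaves depend on whether functional EDS1 is present.

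The gene counts of a library summed to between 20472553 and 22133552 in w.tEDS1 and between 21884984 and 24572145 in eds1-2. Levels are given as CPM, the usual per-library scaling of counts, here with TMM-scaled library totals, and fold changes as log2 of w.tEDS1 over eds1-2. Of 32678 genes, 18770 passed the filter on low counts and were tested. All 3 w.tEDS1 libraries came from lane 7 of 1 sequencing run, the main run, and eds1-2 replicate 2 shared that lane. The eds1-2 replicate 3 library came from lane 8 of the main run and eds1-2 replicate 1 from another run. Photosynthesis transcripts, which mark green leaf tissue, summed to 65502 to 69238 CPM in w.tEDS1 and 62879 to 70788 CPM in eds1-2. Of the markers of guard cells, phloem, dividing cells and epidermis, 17 were tested, and none was called or had an unadjusted p under 0.05. Over all tested genes 2.15% were higher and 0.506% lower at that p. The dividing-cell markers summed to only 2.34 to 3.22 CPM in w.tEDS1 and 2.44 to 3.69 CPM in eds1-2.

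EDS1 itself checked the labels. EDS1 (AT3G48090, chr3:17755329-17758147, minus strand, TAIR10.1) was at 124, 196 and 111 CPM in w.tEDS1 replicates 1, 2 and 3, against 3.81, 4.09 and 3.93 CPM in the eds1-2 replicates. The lowest w.tEDS1 library stood far above every eds1-2 library, while the eds1-2 libraries lay close together above 0. The difference was 36.4-fold (95% interval 18.7 to 70.7; log2 fold change 5.19, SE 0.44, adjusted p = 0.00185, edgeR quasi-likelihood test). EDS1 was the gene with the lowest p of all those tested. Its neighbour and near-identical copy EDS1B (AT3G48080) was at 1.16, 2.35 and 2.53 CPM in w.tEDS1, against 0.275, 0.0861 and 0.479 CPM in eds1-2. Reads that map to both genes were set aside by the authors' counting, so the division of reads between the pair is uncertain. The p-values here and throughout measure the spread between libraries of a genotype. Each library is a pool of plants. The 3 w.tEDS1 libraries shared 1 lane, so their spread holds no lane or run difference, while that of eds1-2 does. The fit had no term for lane or run, so such differences cannot be fully told apart from genotype.

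With EDS1 included, 14 genes were higher in w.tEDS1 and 0 were lower at an adjusted p under 0.05 by the edgeR quasi-likelihood test, and a gene that passes is called higher or lower below. That is 0.0746% of tested genes called higher and 0% called lower. At an unadjusted p under 0.05 there were 404 genes higher (2.15% of those tested) and 95 lower (0.506%). The higher ones had a median log2 fold change of 1.00, and 203 of them were at 1 or above. The lower ones had a median of -0.65, and 19 of them were at -1 or below. The median over all tested genes was -0.01, and 47.7% of them had a positive value. The libraries of the 2 genotypes did not overlap in 956 genes higher in w.tEDS1 (5.09%) and in 511 genes lower in it (2.72%). In RNA from whole leaves, fewer cells of a type and less RNA per cell cannot be told apart.

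**Figure D1:**
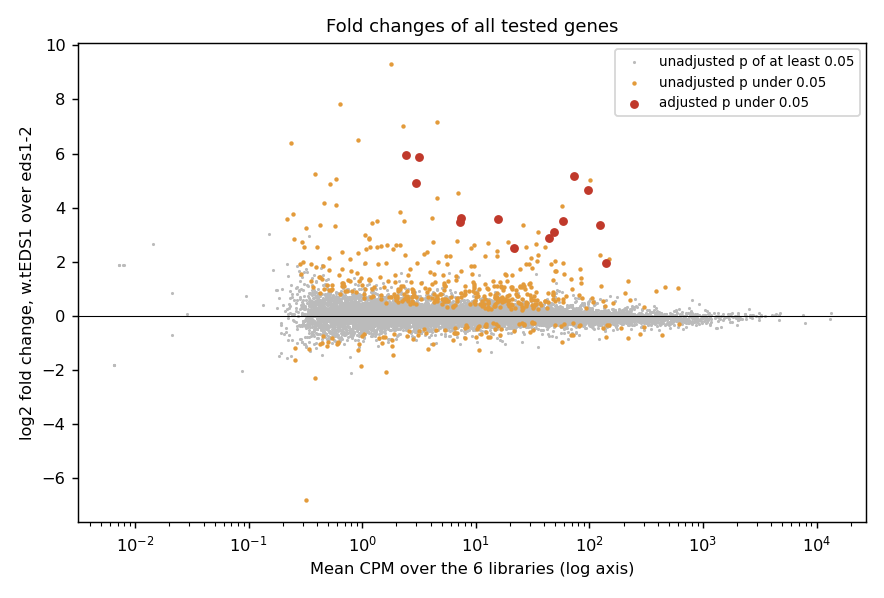
The log2 fold change of w.tEDS1 over eds1-2 is plotted against the mean CPM over the 6 libraries (log axis), with 1 point for each of the 18770 tested genes. Red points are the 14 genes with an adjusted p under 0.05, all above 0, and orange points are the 499 with an unadjusted p under 0.05 less those 14, most of them above 0.

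Of the 13 called genes besides EDS1, 3 encode WRKY transcription factors and 2 encode regulators of salicylic acid synthesis or perception. WRKY70 (AT3G56400, chr3:20908711-20910623), a transcription factor that salicylic acid induces and that also restrains jasmonate responses, was at 153, 323 and 205 CPM in w.tEDS1, against 17.1, 28.9 and 21.0 CPM in eds1-2. Its closest relative WRKY54 (AT2G40750, chr2:17000419-17002528) was at 63.7, 125 and 76.2 CPM in w.tEDS1, against 10.3, 12.6 and 7.86 CPM in eds1-2. In both genes w.tEDS1 replicate 2 was the highest of all 6 libraries and w.tEDS1 replicate 1 still stood above every eds1-2 library. WRKY70 was higher by 3.34 on the log2 scale (SE 0.34, edgeR adjusted p = 0.00742) and WRKY54 by 3.10 (SE 0.37, adjusted p = 0.0194).

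WRKY51 (AT5G64810, chr5:25908247-25909881), a member of another WRKY group, was nearly undetected in the mutant, at 2.80, 10.1 and 4.49 CPM in w.tEDS1, against 0.196, 0.172 and 0.192 CPM in eds1-2 (log2 fold change 4.91, SE 0.63, edgeR adjusted p = 0.0249). NIMIN1 (AT1G02450, chr1:497917-498539), which binds the salicylic acid receptor NPR1 and dampens PR gene expression, was at 2.75, 9.97 and 6.04 CPM in w.tEDS1, against 0.0393, 0.0861 and 0.192 CPM in eds1-2. Its eds1-2 libraries held 7 counts in all, so the log2 fold change of 5.87 (SE 0.82, edgeR adjusted p = 0.0338) rests on few reads on that side. SARD1 (AT1G73805, chr1:27744790-27749248), an activator of ICS1 transcription, was at 55.7, 119 and 58.0 CPM in w.tEDS1, against 11.5, 9.98 and 10.2 CPM in eds1-2. Here the mutant libraries lay within a narrow band, and the gene was higher in w.tEDS1 by 2.88 on the log2 scale (SE 0.43, edgeR adjusted p = 0.0368). SARD1 overlaps GIP2 on the opposite strand, which was not called.

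The promoters of these genes, 250 bases before to 50 after the annotated start, are given because WRKY factors bind the W-box core, TTGAC. The partners of NPR1, the TGA factors, bind the TGA core, TGACG. Both cores were searched on either strand. They share letters, so a W-box core that a G follows counts for both, and a palindrome counts as 2 matches to the TGA core. The W-box core was in 11 of the 14 called promoters (78.6%), against 51.1% of the 18647 tested genes with a promoter sequence. The TGA core was in 8 of the 14 (57.1%), against 24% of the tested genes, and 4 of the 14 held it at least 3 times, against 1.11%. In the 21 genes of the salicylic acid response list described below, 3 of them also among the 14, the W-box core was in 11 (52.4%) and the TGA core in 6 (28.6%). Shown in the direction of transcription from RefSeq TAIR10.1, with matches to either core in capitals, are SARD1 (chr1:27749199-27749498, minus strand), WRKY70 (chr3:20910574-20910873, minus strand), WRKY51 (chr5:25907997-25908296, plus strand), AT3G22235 (chr3:7855765-7856064, minus strand) and AT5G03350 (chr5:816621-816920, minus strand), each with at least 2 matches to the TGA core, and WRKY54 (chr2:17002479-17002778, minus strand), which held neither motif in this window.
SARD1: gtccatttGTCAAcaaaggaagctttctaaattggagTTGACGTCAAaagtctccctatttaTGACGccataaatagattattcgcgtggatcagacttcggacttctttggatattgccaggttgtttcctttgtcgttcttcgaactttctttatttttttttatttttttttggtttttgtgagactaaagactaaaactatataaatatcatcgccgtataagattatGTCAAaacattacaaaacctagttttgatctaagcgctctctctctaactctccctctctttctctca
WRKY70: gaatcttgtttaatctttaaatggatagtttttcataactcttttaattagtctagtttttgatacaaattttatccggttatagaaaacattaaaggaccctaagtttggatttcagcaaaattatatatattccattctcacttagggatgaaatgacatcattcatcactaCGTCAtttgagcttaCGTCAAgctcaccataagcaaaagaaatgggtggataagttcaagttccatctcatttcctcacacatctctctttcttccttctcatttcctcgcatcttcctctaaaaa
WRKY51: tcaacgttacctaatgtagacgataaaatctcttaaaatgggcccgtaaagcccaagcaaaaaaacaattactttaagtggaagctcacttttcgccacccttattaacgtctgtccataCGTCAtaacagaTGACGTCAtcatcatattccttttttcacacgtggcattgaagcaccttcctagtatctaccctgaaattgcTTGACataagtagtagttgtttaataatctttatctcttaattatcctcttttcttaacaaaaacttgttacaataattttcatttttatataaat
AT3G22235: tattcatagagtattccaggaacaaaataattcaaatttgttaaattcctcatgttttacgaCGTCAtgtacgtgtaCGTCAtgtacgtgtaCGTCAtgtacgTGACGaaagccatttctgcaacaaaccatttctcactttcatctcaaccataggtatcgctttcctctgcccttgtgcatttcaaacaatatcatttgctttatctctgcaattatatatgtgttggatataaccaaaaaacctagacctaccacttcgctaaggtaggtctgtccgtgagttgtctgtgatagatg
AT5G03350: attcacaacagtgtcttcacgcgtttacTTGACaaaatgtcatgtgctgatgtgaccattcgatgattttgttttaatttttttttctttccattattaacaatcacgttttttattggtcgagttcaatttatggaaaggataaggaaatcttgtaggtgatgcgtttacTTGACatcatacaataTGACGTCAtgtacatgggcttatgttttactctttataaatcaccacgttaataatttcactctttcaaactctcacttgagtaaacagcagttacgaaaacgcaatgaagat
WRKY54: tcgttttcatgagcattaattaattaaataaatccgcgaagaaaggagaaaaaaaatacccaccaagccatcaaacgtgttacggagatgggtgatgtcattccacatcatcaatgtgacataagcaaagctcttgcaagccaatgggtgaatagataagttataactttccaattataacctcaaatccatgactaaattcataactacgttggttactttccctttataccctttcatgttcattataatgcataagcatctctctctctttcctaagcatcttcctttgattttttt

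SARD1 held 4 matches to the W-box core and 3 to the TGA core, with a run in which they overlap. AT3G22235 held 4 matches to the TGA core and 0 to the W-box core. WRKY54, whose level moved in the same direction as that of WRKY70, held no match to either core. The same was true of NIMIN1, whose promoter is not shown. A match describes the letters only, and whether a factor binds there was not measured.

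The other 8 called genes were more varied. AT5G03350 (chr5:815610-816670), annotated as a legume lectin family protein, had the widest spread among the w.tEDS1 libraries, at 71.0, 349 and 141 CPM, against 9.22, 7.92 and 5.27 CPM in eds1-2 (log2 fold change 4.64, SE 0.68, edgeR adjusted p = 0.0368). AT3G22235 (chr3:7854419-7855814), annotated as a cysteine-rich TM module stress tolerance protein, was at 74.6, 108 and 142 CPM in w.tEDS1, against 8.40, 12.6 and 7.76 CPM in eds1-2 (3.50, SE 0.48, adjusted p = 0.0338). AT2G41090 (chr2:17135347-17136999), a calcium-binding EF-hand protein, had the smallest difference of the 14 and was at 152, 258.3 and 258.4 CPM in w.tEDS1, against 53.5, 55.9 and 64.1 CPM in eds1-2 (1.95, SE 0.24, adjusted p = 0.0211). In each of these genes every w.tEDS1 library was above every eds1-2 library.

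AT1G72910 (chr1:27435306-27437192), which encodes a protein with a TIR domain, the signalling domain of receptors such as RPS4, was at 25.8, 62.6 and 23.1 CPM in w.tEDS1, against 6.91, 6.63 and 6.04 CPM in eds1-2 (log2 fold change 2.51, SE 0.36, edgeR adjusted p = 0.0368). AT1G19960 (chr1:6927736-6928656), annotated as a transcription factor, was at 16.9, 41.0 and 29.3 CPM in w.tEDS1, against 2.39, 2.37 and 2.59 CPM in eds1-2 (3.57, SE 0.47, adjusted p = 0.0265). AT5G24200 (chr5:8202919-8205824), of the alpha/beta-hydrolase superfamily, was at 8.01, 22.2 and 11.2 CPM in w.tEDS1, against 1.45, 0.99 and 0.91 CPM in eds1-2 (3.61, SE 0.52, adjusted p = 0.0368). The 2 other genes were a lipid-transfer protein and a heavy metal transport protein by annotation. AT5G55450 (chr5:22467337-22468306), the lipid-transfer one, was at 6.85, 17.0 and 16.1 CPM in w.tEDS1, against 1.65, 0.90 and 0.96 CPM in eds1-2 (3.49, SE 0.52, adjusted p = 0.0368). AT5G26690 (chr5:9310797-9311572) was at 2.08, 7.88 and 4.31 CPM in w.tEDS1 and had only 5 counts over the eds1-2 libraries (log2 fold change 5.95, SE 0.83, adjusted p = 0.0338). AT5G26690 and AT5G03350 overlap the ends of AT5G26680 and AT5G03345 on the opposite strand, neither of which was called.

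**Figure D2:**
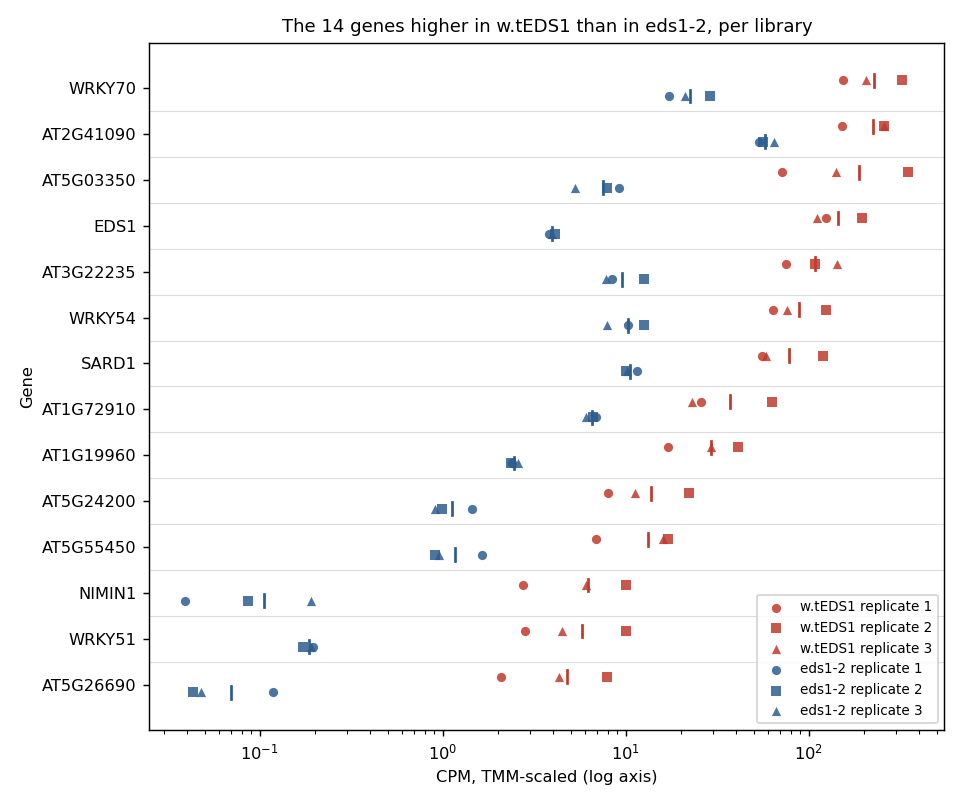
Levels in CPM (log axis) of the 14 called genes, ordered by their mean in w.tEDS1, with w.tEDS1 in red above eds1-2 in blue, 1 marker per replicate and a vertical bar at the mean of 3 libraries. No gene has overlapping groups, and w.tEDS1 replicate 2 (squares) is the highest library in 12 of the 14.

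The w.tEDS1 libraries differed in a shared way. Among the 14 genes, w.tEDS1 replicate 2 was highest in 12 and replicate 1 lowest in 12. How often each library was highest or lowest over all tested genes was not counted. Among the 21 salicylic acid response genes, w.tEDS1 replicate 2 was highest in 13 and replicate 3 in 7. Those higher in replicate 3 included PR1, the usual marker of the salicylic acid response, at 0.241, 0.74 and 26.3 CPM in w.tEDS1, against 0, 0 and 0.192 CPM in eds1-2. PR1 was at or below 0.74 CPM in 5 of the 6 libraries and its difference was not called (log2 fold change 7.16, SE 2.62, edgeR adjusted p = 1.00).

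The other genotypes place these levels. The comparisons of w.tEDS1 with R493A and with Col-0 share the w.tEDS1 libraries with the one above, so the values stand side by side and are not independent of it. EDS1 was at 31.1, 23.5 and 19.4 CPM in R493A and at 32.5, 72.0 and 23.2 CPM in Col-0, so every w.tEDS1 library was above all libraries of both. Against Col-0 it was higher in w.tEDS1 by 1.76 (SE 0.37, edgeR adjusted p = 0.0498). The other 13 genes lay between -0.66 and 0.62 against Col-0 on the log2 scale, their libraries overlapped with Col-0 in all 13, and none was called (edgeR adjusted p 0.332 to 0.829, where 0.506% of tested genes were called higher and 0.581% lower). Against R493A all 14 were called higher in w.tEDS1 (log2 fold changes 1.92 to 7.01, edgeR adjusted p 0.0026 to 0.0305), where 0.208% of tested genes were called higher and 0.016% lower. The eds1-2 and R493A libraries overlapped in 11 of the 14. How often these groups, or w.tEDS1 and Col-0, overlapped over all tested genes was not counted, so the overlap counts describe these genes only. The Col-0 libraries varied the most, with a median SD over tested genes of 0.281 on the log2 scale, against 0.178 in w.tEDS1.

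**Figure D3:**
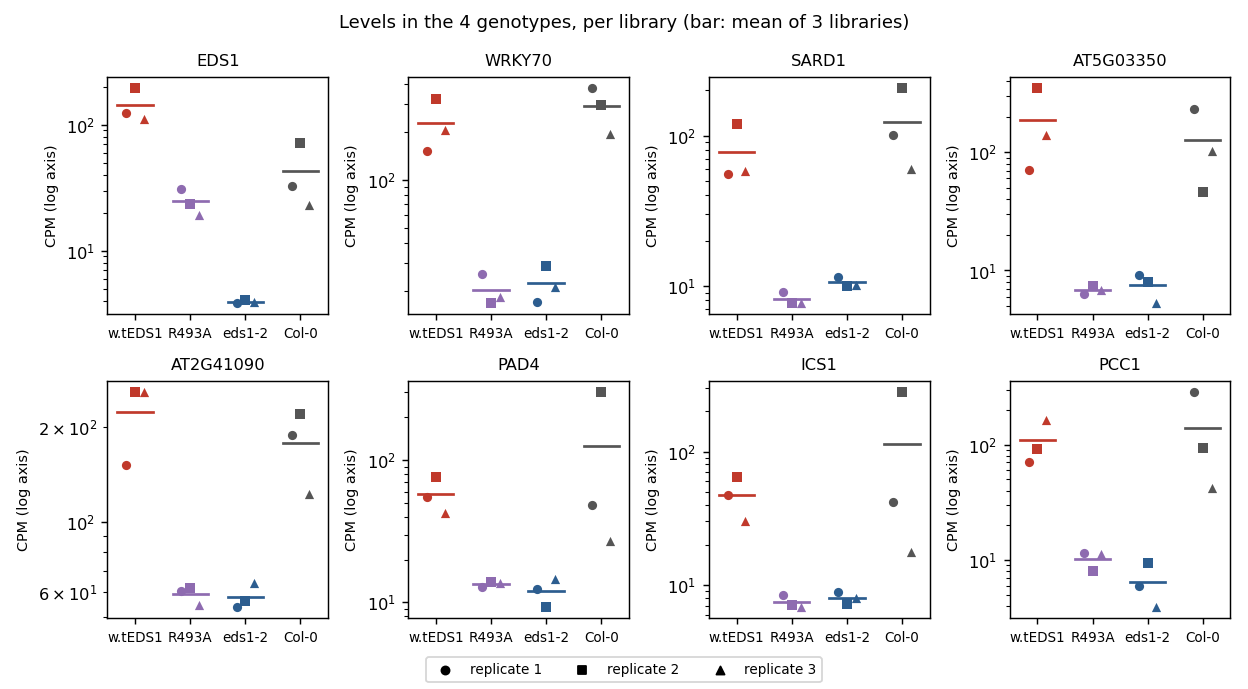
Levels in CPM (log axis) of 8 genes in w.tEDS1, R493A, eds1-2 and Col-0, with 1 marker per library and a bar at the mean of 3 libraries. For EDS1 the R493A libraries lie at 19.4 to 31.1 CPM, above the eds1-2 libraries at 3.81 to 4.09 CPM, while for WRKY70, SARD1, AT5G03350 and AT2G41090 the R493A and eds1-2 libraries all lie below every w.tEDS1 and Col-0 library.

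Of the 10 genes of the EDS1 module and its helper receptors, EDS1 was the 1 called higher, where 0.0746% of all tested genes were. At an unadjusted p under 0.05, 6 were higher (2.15% of all tested genes), and in 9 every w.tEDS1 library was above every eds1-2 library (5.09% of all tested genes). The median log2 fold change was 1.06, against -0.01 over all tested genes, and the list holds EDS1, the gene that the lines differ in. PAD4 (AT3G52430), the partner of EDS1 in basal defence, was at 55.0, 75.7 and 42.5 CPM in w.tEDS1, against 12.5, 9.21 and 14.6 CPM in eds1-2, and was not called (2.26, SE 0.70, edgeR adjusted p = 1.00). SAG101, the partner of EDS1 in cell death, differed less, at 29.0, 32.3 and 30.1 CPM in w.tEDS1, against 21.2, 24.9 and 24.1 CPM in eds1-2. Of the helper receptors, AT5G66910, a disease resistance protein of the CC-NBS-LRR class, had the lowest p, at 17.9, 41.9 and 21.2 CPM in w.tEDS1, against 9.66, 11.8 and 7.14 CPM in eds1-2 (1.5, SE 0.29, adjusted p = 0.169). ADR1, ADR1-L1 and ADR1-L2 had log2 fold changes of 0.46, 0.54 and 0.62. The 4 receptor genes for AvrRps4 lay between 0.10 and 0.34, all with overlapping libraries and none at an unadjusted p under 0.05, and RPS4 was at 24, 24.4 and 21.9 CPM in w.tEDS1, against 17.3, 17.0 and 22.5 CPM in eds1-2.

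SARD1 was the 1 called gene of salicylic acid synthesis. Of the 11 genes of synthesis and its regulators, 1 was called higher (0.0746% of all tested genes), 3 had an unadjusted p under 0.05 and were higher (2.15% of all tested genes), and the median was 0.39. ICS1 (AT1G74710) was at 47.0, 64.8 and 30.4 CPM in w.tEDS1, against 8.87, 7.27 and 8.0 CPM in eds1-2, with no overlap (2.56, SE 0.78, edgeR adjusted p = 0.986). PBS3 (AT5G13320), which joins glutamate to the product of ICS1, was at 54.3, 65.6 and 47.8 CPM in w.tEDS1, against 11.7, 16.8 and 12.9 CPM in eds1-2 (2.02, SE 0.57, adjusted p = 0.785). ICS1, PBS3 and PAD4 varied widely in Col-0, where ICS1 spanned 17.7 to 279 CPM. When the 6 libraries compared here were fitted alone, without Col-0 and R493A, 27 genes were called higher and 0 lower, among them ICS1 (2.55, adjusted p = 0.0326), PAD4 (2.25, adjusted p = 0.0326) and PBS3 (2.01, adjusted p = 0.0213). Of the 14 genes above, 12 were among the 27, without AT1G72910 and AT5G03350.

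Of the 5 tested genes that remove or modify salicylic acid, none was called, where 0.0746% of all tested genes were called higher. At an unadjusted p under 0.05, 3 were higher (2.15% of all tested genes) and 1, BSMT1, was lower (0.506%), and the median was 1.73. DMR6 (AT5G24530), which hydroxylates salicylic acid, was at 98.3, 142 and 141 CPM in w.tEDS1, against 41.6, 39.8 and 33.7 CPM in eds1-2 (1.73, SE 0.32, edgeR adjusted p = 0.149). DLO1 (AT4G10500), its relative, was at 2.27, 2.22 and 9.03 CPM in w.tEDS1, and eds1-2 held 1 count in all. UGT76B1, a glucosyltransferase of salicylic acid and N-hydroxypipecolic acid, was at 49.7, 124 and 64.6 CPM in w.tEDS1, against 17.3, 21.6 and 19.8 CPM in eds1-2 (2.02, SE 0.37, adjusted p = 0.155). BSMT1, which methylates salicylic acid, ran the other way and had overlapping libraries, at 57.9, 26 and 34.7 CPM in w.tEDS1, against 56.0, 65.5 and 107 CPM in eds1-2 (-0.94, SE 0.35, unadjusted p = 0.019, adjusted p = 1.00). FMO1, which makes N-hydroxypipecolic acid, the mobile signal of systemic resistance, was low in both, at 1.45, 2.05 and 3.37 CPM in w.tEDS1, against 0.471, 0.43 and 0.24 CPM in eds1-2.

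In perception, NIMIN1 was the 1 called of 13 genes (0.0746% of all tested genes), and the list median was 0.33. NIMIN2, another NPR1-binding protein, was at 15.8, 26 and 25.0 CPM in w.tEDS1, against 1.33, 3.57 and 5.56 CPM in eds1-2 (2.69, SE 0.53, edgeR adjusted p = 0.176). NPR4, a salicylic acid receptor that represses defence genes, was at 21.9, 35.0 and 27.6 CPM in w.tEDS1, against 14.4, 14 and 12 CPM in eds1-2 (1.06, SE 0.21, adjusted p = 0.169). The libraries of neither gene overlapped.

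The salicylic acid response list held the most members with low p-values. Its members, like those of the other lists, were chosen with earlier results of these data known, so the shares below describe the list and do not test it. Of its 21 genes 3 were called higher (14.3%, against 0.0746% of all tested genes), and 18 had an unadjusted p under 0.05 and were higher (85.7%, against 2.15%). All 21 had a positive value, as 47.7% of all tested genes did, and the median was 2.39. In 16 of them every w.tEDS1 library was above every eds1-2 library (76.2%, against 5.09% of all tested genes). PCC1 (AT3G22231), a small membrane-associated protein of the same family as AT3G22235, was at 70.5, 91.2 and 164 CPM in w.tEDS1, against 6.01, 9.34 and 3.88 CPM in eds1-2 (4.08, SE 0.65, edgeR adjusted p = 0.0666). LURP1, a gene needed for full resistance to downy mildew, was at 64.3, 326 and 203 CPM in w.tEDS1, against 8.87, 6.93 and 2.44 CPM in eds1-2 (5.02, SE 0.89, adjusted p = 0.113). PR2, a glucanase, was at 44.0, 29.3 and 118 CPM in w.tEDS1, against 10.4, 6.02 and 5.85 CPM in eds1-2 (3.10, SE 0.91, adjusted p = 0.877). PR5 and ACD6 overlapped because eds1-2 replicate 1 was high, with PR5 at 39.2, 67.3 and 99.0 CPM in w.tEDS1, against 46.6, 19.6 and 14.9 CPM in eds1-2. WRKY38, a repressor of defence, had 232 counts over the w.tEDS1 libraries and 0 over the eds1-2 libraries. Against the limit of 3 counts over the eds1-2 group, which is 0.0431 CPM, it was at least 82.7-fold higher in w.tEDS1.

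**Figure D4:**
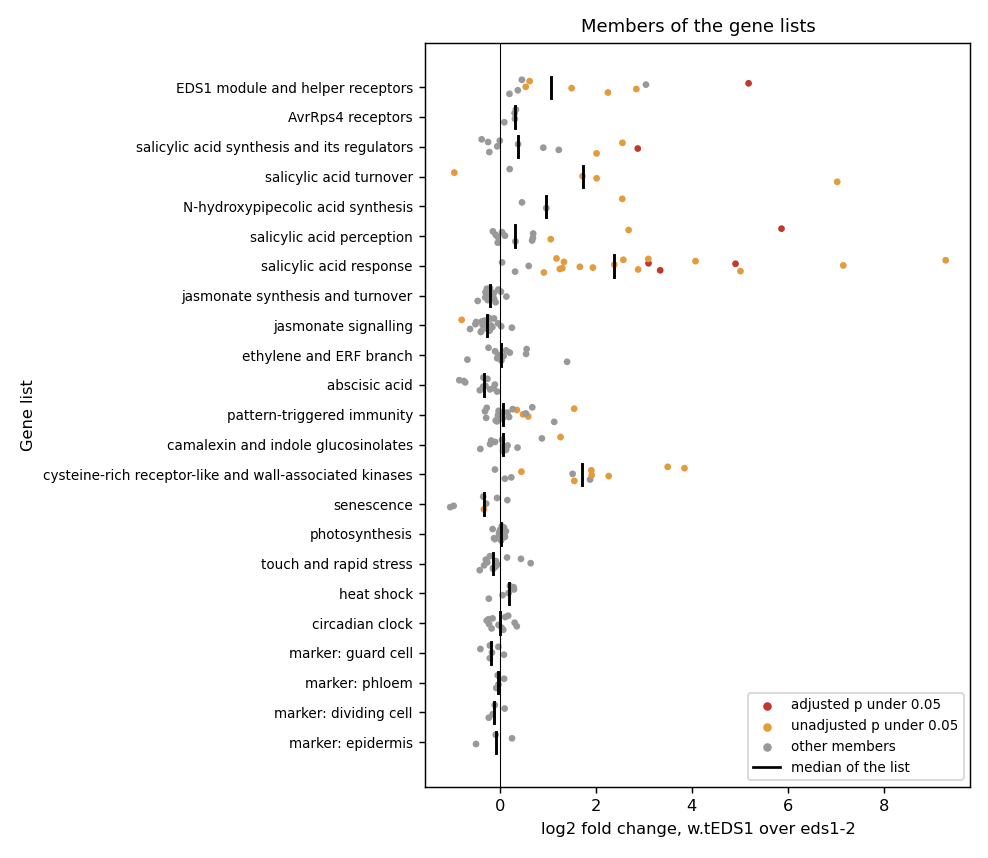
Each point is the log2 fold change of w.tEDS1 over eds1-2 for 1 tested gene of a list, red where the adjusted p was under 0.05 and orange where only the unadjusted p was, and the black bar is the median of the list. The salicylic acid response (median 2.39), the turnover of salicylic acid (1.73) and the kinases (1.72) lie to the right of 0, while the median over all tested genes was -0.01.

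Of 12 genes for cysteine-rich receptor-like and wall-associated kinases of the cell surface, none was called, where 0.0746% of all tested genes were called higher. At an unadjusted p under 0.05, 7 were higher (2.15% of all tested genes) and 0 lower. A positive value was found in 11 (47.7% of all tested genes) and a negative one in 1, and the median was 1.72. In 7 every w.tEDS1 library was above every eds1-2 library (58.3%, against 5.09% of all tested genes). WAK1, a pectin-binding kinase, was at 120, 327 and 172 CPM in w.tEDS1, against 63.6, 30.6 and 33.9 CPM in eds1-2 (2.27, SE 0.43, edgeR adjusted p = 0.155). CRK37 was at 5.41, 2.13 and 4.49 CPM in w.tEDS1, against 0.393, 0.0861 and 0.335 CPM in eds1-2 (3.85, SE 0.99, adjusted p = 0.578). Pattern-triggered immunity had a median of 0.06 over 23 genes, of which 4 had an unadjusted p under 0.05 and were higher (2.15% of all tested genes). These were the receptor RLP23, at 1.55, its co-receptor SOBIR1, at 0.49, and the kinases MKK4 and MKK5, at 0.60 and 0.36. The 12 camalexin and indole glucosinolate genes had a median of 0.07. The regulator MYB51, at 1.27, was the 1 member with an unadjusted p under 0.05, where 2.15% of all tested genes were higher at that p.

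No jasmonate, abscisic acid or ethylene gene was called, where 0.0746% of all tested genes were called higher and 0% lower. The 16 genes of jasmonate synthesis and turnover had a median of -0.20 with 14 negative values. The 21 of jasmonate signalling had a median of -0.27 with 19 negative values, where 52.3% of all tested genes were negative. Median levels per library were centred on the mean of the 6 libraries in log2 units. Signalling was at 0.14, -0.17 and -0.31 in w.tEDS1, against -0.16, -0.09 and 0.61 in eds1-2. Synthesis and turnover was at 0.14, -0.13 and -0.27 in w.tEDS1, against -0.27, 0.02 and 0.44 in eds1-2. In both lists eds1-2 replicate 3 was the highest library. VSP2, a storage protein used as a jasmonate marker, was the 1 of the 37 jasmonate genes with an unadjusted p under 0.05. Of all tested genes 0.506% were lower and 2.15% higher at that p. VSP2 was at 95.9, 83.2 and 130 CPM in w.tEDS1, against 217, 170 and 148 CPM in eds1-2 (-0.79, SE 0.29, edgeR adjusted p = 1.00). All 12 abscisic acid genes were negative, with a median of -0.32 and none at an unadjusted p under 0.05, and the 13 ethylene genes had a median of 0.04. The medians were -0.33 for senescence, -0.13 for touch and rapid stress, 0.20 for heat shock and 0.01 for the circadian clock. They were -0.18 for the guard cell, -0.03 for the phloem, -0.12 for the dividing cell and -0.08 for the epidermis markers.

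Among genes lower in w.tEDS1, by edgeR 0 were called and 95 had an unadjusted p under 0.05. DESeq2 and limma-voom each called 1, AT3G60170, a pseudogene with 0 counts in every w.tEDS1 library. Of the genes of at least 1 CPM on average, ORTHL (AT4G08590), a relative of the ORTHRUS ubiquitin ligases, had the lowest p, at 2.32, 1.39 and 3.04 CPM in w.tEDS1, against 3.65, 5.77 and 6.42 CPM in eds1-2 (-1.23, edgeR adjusted p = 0.782). GEA6, a late embryogenesis protein, was at 1.3, 1.00 and 1.17 CPM in w.tEDS1, against 1.88, 2.32 and 3.31 CPM in eds1-2. FAR1, a fatty acid reductase, was the most abundant of them, at 266, 236 and 275 CPM in w.tEDS1, against 331, 366 and 330 CPM in eds1-2, a log2 fold change of -0.40. The libraries of none of the 3 overlapped.

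Several called genes had a neighbour that also lay higher. AT1G72910 stands in a row of TIR-domain genes on chromosome 1, where AT1G72920 was at 1.86, TIR (AT1G72930) at 1.22 and AT1G72940 at 1.07 on the log2 scale, with unadjusted p of 0.00562, 0.00109 and 0.0177 in the edgeR test and none called. PCC1 is the neighbour of AT3G22235, and the next gene of that family, AT3G22240, was at 1.70 ± 1.35 CPM in w.tEDS1 and 1.63 ± 0.635 CPM in eds1-2 (SD, n = 3). AT5G55460, next to AT5G55450 and of the same lipid-transfer family, was at 3.39 ± 0.781 CPM in w.tEDS1 and 0.548 ± 0.0891 CPM in eds1-2 (SD, n = 3; log2 fold change 2.62). TCH3, next to AT2G41090 and likewise a calcium-binding EF-hand gene, was at 306 ± 61.0 CPM in w.tEDS1 and 195 ± 47.5 CPM in eds1-2 (SD, n = 3), a smaller difference that had an unadjusted p of 0.166 by edgeR. Reads of near-identical family members were set aside by the counting, so levels in these rows are uncertain. Around EDS1, 646 genes within 2 Mb were tested and EDS1 was the 1 called (0.155%, against 0.0746% of all tested genes). The window is centred on EDS1, so that call was fixed in advance, and 0 other genes in it were called. At an unadjusted p under 0.05 by edgeR, 20 of the 646 were higher and 2 lower. Over all tested genes 2.15% were higher and 0.506% lower at that p.

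The largest axis of variation among the 6 libraries did not divide the genotypes. The first principal component of log2(CPM + 0.5) held 47.0% of the variance and placed w.tEDS1 replicates 1, 2 and 3 at -19.5, 32.7 and -2.17, against 32.7, -6.91 and -36.8 for eds1-2. The second held 23.3% and separated them, at -14.4, -15.1 and -23.0 for w.tEDS1, against 22.1, 18.8 and 11.7 for eds1-2. The abscisic acid list had its highest levels in the libraries at the low end of the first axis, eds1-2 replicate 3 and w.tEDS1 replicate 1. Its median level, centred on the mean of the 6 libraries in log2 units, was 0.33, -0.83 and 0.03 in w.tEDS1, against -0.64, 0.15 and 0.82 in eds1-2. The touch list was at 0.28, -0.25 and 0.04 in w.tEDS1, against -0.70, -0.03 and 0.70 in eds1-2. The part of this axis in the results was not tested.

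**Figure D5:**
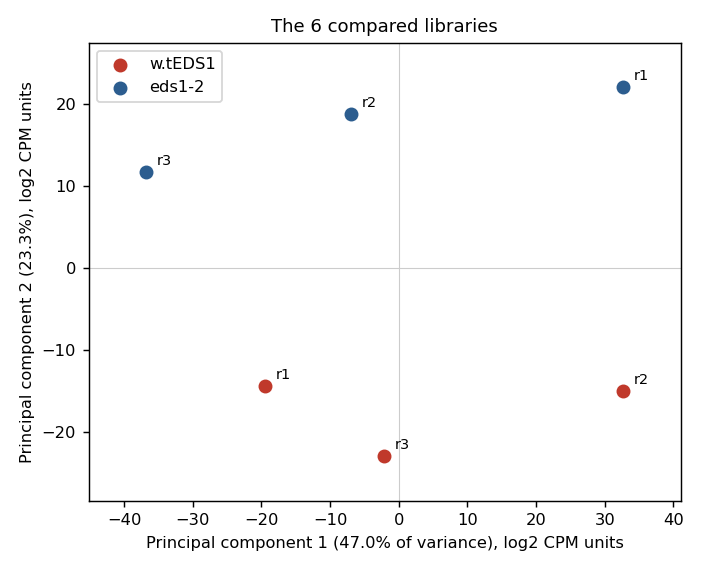
Positions of the 6 libraries on the first 2 principal components of log2(CPM + 0.5), with w.tEDS1 in red, eds1-2 in blue and the replicate number beside each point. The second component separates the genotypes (w.tEDS1 at -23.0 to -14.4, eds1-2 at 11.7 to 22.1), and the first does not.

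The direction held in every setting, while many calls did not. Each of the 14 genes stayed higher in w.tEDS1 in all 24 other settings tried, and EDS1 stayed called without any 1 library. The 14 were picked as higher from these same data and their groups did not overlap, so a reversal was hardly possible. WRKY70 stayed called without 10 of the 12 libraries and lost the call without eds1-2 replicate 1 or 3 (adjusted p up to 0.112), WRKY54 stayed called without 8 of 12, and the other 11 genes without 3 to 5 of 12. Without eds1-2 replicate 1, 2 or 3 the edgeR test called 1, 2 or 1 genes higher, without w.tEDS1 replicate 2 or 3 it called 5 or 4, and without any R493A library 2 or 3. Without Col-0 replicate 2 or 3 it called 30 or 63. Within the main run alone, where eds1-2 had 2 libraries, no gene was called in either direction, and EDS1 was at 5.16 (adjusted p = 0.109), WRKY70 at 3.18 (adjusted p = 0.168) and SARD1 at 2.94 (adjusted p = 0.320).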

How the data were processed

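The values deposited by the authors are unnormalized read counts, 1 column per library. Per the submitters' processing notes, TAIR10, TopHat2, HTSeq and limma were used, with no versions, roles or settings given. Per the labels' protocols, poly(A) RNA went into an unstranded kit (TruSeq v2), so overlapping genes cannot be told apart. The 5 summary entries that name no gene took 9.69% to 22.9% of a column and were left out. Gene counts summed to 19273912 to 24572145 per library. A gene with 0 counts could lie at up to 3 counts, 0.118 to 0.154 CPM in a library, a limit for counting error alone, as PCR copies were not told apart by molecular identifiers.

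The model was fitted with edgeR 4.0.16 under R 4.3.3 (filterByExpr, TMM, glmQLFit and glmQLFTest, genotype as the only term, all 12 libraries, prior count 0.125). Adjusted p-values are Benjamini-Hochberg values over 18770 genes, with a threshold of 0.05, and intervals are at 95%. Each adjusted p comes from this fit unless another is named. On simulated counts the scripts recovered most of the changes they were made with. Those counts had only large changes, the same spread for every gene and no lane or run effect. They do not show how well changes are found in these data. Alternatives were other scaling, no filter, DESeq2 1.42.0, limma 3.58.1 voom, the 6 libraries alone, run, lane, a replicate block and each library left out.

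The lists number 23, 4 of them cell type markers, and 246 of their 250 genes were tested. Named genes are EDS1, EDS1B, PAD4, ICS1, FMO1, PR1, the called genes, the 8 uncalled genes per direction with the lowest p at 1 CPM or more, and up to 4 per list with the lowest p. Those of them whose values were near 0 are covered by list counts, and other genes, such as neighbours of called genes, were chosen after their values were seen. Members and lists were chosen with earlier results of these data known. Symbols, coordinates and promoters come from RefSeq TAIR10.1, which matched 31912 of 32678 identifiers.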

Additional observations from a re-analysis of the deposited data

How the results depend on the processing

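The edgeR count of 14 genes higher was the same with DESeq2 size factors and was 17 with no filter on low counts. It was 83 with DESeq2, 87 with limma-voom and quality weights, 27 in the 6 libraries alone, 5 with limma-voom, 2 with the run as covariate, and 0 in the main run alone, with the lane as covariate or in lane 7 alone. Leaving out 1 library at a time gave 1 to 63 higher and 0 to 1 lower. The count of 0 lower became 1 with DESeq2, 1 with limma-voom and 5 with quality weights. EDS1 was at 4.89 to 5.34 without any 1 library, and lost its call in 3 settings, at 5.16 in the main run alone (adjusted p = 0.109), at 4.95 when lane was a covariate (adjusted p = 0.255) and at 5.15 for lane 7 alone (adjusted p = 0.246). With EDS1 itself counted, called genes near EDS1 were 1 within 2 Mb (0.155%) and 2, with WRKY70, within 5 Mb (0.152%). Of all tested genes 0.0746% were called higher. The windows are centred on EDS1, so 1 call in each was fixed in advance. The replicate block left 6 genes called higher, and 6 within the 6 libraries alone, an alternative chosen after seeing the data. Same-numbered libraries of the 2 genotypes deviated with correlations of -0.58, -0.05 and 0.09. Differently numbered ones had correlations from -0.55 to 0.60. With 3 libraries a group these values cannot decide whether same-numbered libraries were paired. In lane 7 alone each genotype other than w.tEDS1 has 1 library, so the spread there comes from w.tEDS1 and eds1-2 is assumed to share it. No direction reversed in these alternatives for the genes named with an unadjusted p under 0.05 other than AT3G60170, which was run with 3 other tools only. Those genes had a low p in the main fit, so a reversal was unlikely from the start. The cause of the lost calls was not tested.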

Other observations

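AT3G60170, a pseudogene by annotation, was chosen after its values were seen. It had 0, 0 and 0 counts in w.tEDS1 and 13, 20 and 11 in eds1-2, with 1, 0 and 1 in R493A and 1, 0 and 2 in Col-0. Against the limit of 3 counts over the w.tEDS1 group it was at least 13.7-fold lower in w.tEDS1. The edgeR quasi-likelihood test did not call it (adjusted p = 0.0948), while DESeq2 (adjusted p = 0.00292), limma-voom (adjusted p = 0.0173) and limma-voom with quality weights (adjusted p = 0.000501) did.

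The fit of the 6 libraries alone also called genes that the salicylic acid lists do not hold. PUB54, a U-box protein, was at 8.73 ± 1.2 CPM in w.tEDS1 and 0.417 ± 0.100 CPM in eds1-2 (SD, n = 3; log2 fold change 4.37, edgeR adjusted p = 0.00237). NUDT6, a Nudix hydrolase, was at 13.3 ± 5.07 CPM in w.tEDS1 and 0.562 ± 0.113 CPM in eds1-2 (4.54, adjusted p = 0.0145). CYP76C6, a cytochrome P450, was at 15.4 ± 2.93 CPM in w.tEDS1 and 2.70 ± 0.891 CPM in eds1-2 (2.51, adjusted p = 0.0326). In the fit of all 12 libraries none of the 3 was called.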
